A study of Mus musculus with 4 samples.

Results

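Heat shock proteins are molecular chaperones, and 10 of their genes were followed in isolated mouse pancreatic islets: Hspa1a, Hspa1b, Hspa2, Hspa8, Hsph1, Dnajb1, Hsp90aa1, Hsp90ab1, Hspb1 and Hspd1. These are 10 of the 54532 genes in the deposited table, and all 10 were among the 12716 genes with an FPKM (fragments per kilobase of transcript, scaled to the size of the library) of at least 1 in at least 2 libraries. They were taken by symbol, and the family was chosen by the observation that Hspa2 was higher in transgenic islets, so their transgenic and wild-type values are given as a description without a test. The proteins of 9 of the genes work in the cytosol and nucleus, whereas Hspd1 encodes the chaperonin of the mitochondrial matrix, which the name cytosolic does not cover.

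All mice were C57BL/6 males, 10 to 12 weeks old, and their isolated islets were sequenced. Transgenic mice overexpressed miR-29a/b-1 in pancreatic beta cells (2 libraries), by a promoter that the labels do not name, and the others were wild type (2 libraries). The hairpin gene Mir29a was listed at 0 in both transgenic libraries, against 0 and 1.31 FPKM in the wild-type libraries 1 and 2, and Mir29b-1 at 0 in all 4; libraries of long RNA do not capture mature microRNAs, so these values do not check the genotype. The titles number the libraries 1 and 2 within each genotype without stating what a number marks. The labels do not say how many mice each library holds, so a p-value here reflects the variation among 4 libraries, part of which may be technical. Whole islets were sequenced, so RNA of beta cells was measured together with that of every other cell in the preparation, and in such bulk RNA fewer cells of a type and less RNA per cell cannot be told apart.

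The libraries held 21670854 to 27080907 reads assigned to genes. Insulin and the other hormone genes dominated every library: the 6 hormone markers (Ins1, Ins2, Iapp, Gcg, Sst, Ppy) summed to 167470 and 292420 FPKM in the transgenic libraries 1 and 2, against 239850 and 308510 FPKM in the wild-type libraries 1 and 2. Both libraries numbered 1 stood apart from both numbered 2. Genes of exocrine acinar cells, which make digestive enzymes, were part of this: the 16 acinar markers summed to 7542 and 2039 FPKM in the transgenic libraries 1 and 2, against 5583 and 1183 FPKM in the wild-type libraries 1 and 2. Each value below is therefore also given within a number.

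HSP70 proteins bind unfolded stretches of other proteins and release them in a cycle driven by ATP. J proteins such as that of Dnajb1 (HSP40) deliver substrates and start ATP hydrolysis, and the HSP110 protein of Hsph1 exchanges the nucleotide so that HSP70 can let go. HSP90 completes the folding of kinases, steroid receptors and other clients, small heat shock proteins such as that of Hspb1 hold unfolded proteins in a soluble state, and the Hspd1 chaperonin folds proteins imported into mitochondria. Heat, oxidants and other protein damage free the transcription factor HSF1, which binds heat shock elements, alternating GAA and TTC units spaced by a pair of bases. Hspa1a, Hspa1b, Hsph1, Dnajb1 and Hspb1 are strongly inducible, Hspa8 and Hsp90ab1 are abundant in most cells without stress, and Hspa2 is best known from developing sperm.

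Promoter sequences are shown for the genes whose windows held letters of the heat shock element. Windows of 250 bases before to 50 bases after an annotated start (RefSeq, GRCm38.p6) were at hand for 7 of the 10 genes; Hspa8, Hsp90aa1 and Hsp90ab1 were not searched. Each window was searched for GAANNTTC and TTCNNGAA, which are their own reverse complements and so cover both strands, and overlapping matches that share a unit were counted as 3 or more units. The 7 genes hold 10 windows, since Hsph1, Dnajb1 and Hspd1 have a second annotated start. A match was in 6 of the 10 windows, against 15.1% of all 32851 windows, and a run of at least 3 units in 3 of the 10 (both of Hsph1 and 1 of Hspd1), against 0.603% of all windows. The windows are not independent: those of Hspa1a and Hspa1b are near-identical, and those of Hsph1 overlap. Capitals mark the GAA and TTC units, and each line reads 5′ to 3′ on the gene's strand.
Hspa1a, chr17:34972157-34972406, minus strand, the 250 bases before the start: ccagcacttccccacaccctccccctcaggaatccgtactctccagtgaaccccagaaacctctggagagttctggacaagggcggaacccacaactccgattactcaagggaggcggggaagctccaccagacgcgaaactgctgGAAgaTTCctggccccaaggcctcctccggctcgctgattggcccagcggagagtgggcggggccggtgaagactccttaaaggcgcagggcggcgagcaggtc
Hspa1b, chr17:34959239-34959488, minus strand, the 250 bases before the start: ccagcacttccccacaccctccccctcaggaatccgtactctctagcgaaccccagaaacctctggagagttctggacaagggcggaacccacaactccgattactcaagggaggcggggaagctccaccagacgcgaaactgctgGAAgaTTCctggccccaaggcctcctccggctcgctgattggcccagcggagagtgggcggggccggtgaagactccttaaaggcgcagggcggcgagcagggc
Hspb1, chr5:135887669-135887918, plus strand, the 250 bases before the start: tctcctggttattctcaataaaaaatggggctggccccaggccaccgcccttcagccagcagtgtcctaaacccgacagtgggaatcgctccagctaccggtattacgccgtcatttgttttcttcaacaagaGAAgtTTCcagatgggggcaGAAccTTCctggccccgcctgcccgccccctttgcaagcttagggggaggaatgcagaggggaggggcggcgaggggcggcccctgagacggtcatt
Hsph1, chr5:149636351-149636380, minus strand, around the match before the start: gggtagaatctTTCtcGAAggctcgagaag
Hsph1, chr5:149636287-149636316, minus strand, the 3-unit run after the start: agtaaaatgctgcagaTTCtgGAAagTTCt
Hspd1, chr1:55088053-55088082, minus strand, the 4-unit run before the second annotated start: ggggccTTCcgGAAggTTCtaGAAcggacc
In Hspa1a and in Hspa1b the match began 104 bases before the start. Hspb1 had matches 117 and 97 bases before its start, and that of Hsph1 lay 33 bases before the first of its annotated starts. The 4-unit run of Hspd1 began 144 bases before its second annotated start, in the stretch that Hspd1 shares with its divergent neighbour Hspe1. No window of Hspa2 or Dnajb1 had a match, which says only that these letters are not there. A match is a run of letters, and binding was not measured.

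Hspa1a and Hspa1b are near-identical neighbours: their coding sequences are identical at 1918 of 1929 positions (99.43%) and the promoter windows at 296 of 300 (98.67%). Reads can therefore be assigned to either copy, and the split between them is uncertain. Hspa1b took 57.4% and 60.7% of the reads of the pair in the transgenic libraries 1 and 2, against 58.6% and 60.9% in the wild-type libraries 1 and 2. Hspa2, in contrast, shares 78.28% of aligned coding positions with Hspa1a, and it lies on another chromosome.

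Between genotypes, Hspa2 was the member whose transgenic libraries both lay above both wild-type ones. Hspa2 (ENSMUSG00000059970, chr12:76404176-76406938, plus strand, GRCm38) was at 8.93 and 9.32 FPKM in the transgenic libraries 1 and 2, against 6.08 and 6.74 FPKM in the wild-type libraries 1 and 2. The means were 9.13 ± 0.275 FPKM in transgenic islets and 6.41 ± 0.463 FPKM in wild-type islets (SD, n = 2 each). The fold was 1.47 among the libraries numbered 1 and 1.38 among those numbered 2, and the log2 fold change over all 4 libraries, computed on log2(FPKM + 1), was 0.45 ± 0.13 (SE). These values chose the family and support nothing further. They rest on 609 and 518 reads in the transgenic libraries 1 and 2, against 384 and 462 reads in the wild-type libraries 1 and 2. As shares of all reads that is 0.00258% and 0.00239%, against 0.00162% and 0.00171%. The exact binomial 95% intervals run from 0.00219% to 0.00279% over the transgenic libraries and from 0.00146% to 0.00187% over the wild-type ones, and they cover counting error only.

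The other members were mostly higher in transgenic islets within both numbers, by small amounts beside the gap between the numbers. Of the 10 genes, 9 were higher in the transgenic library in both number pairs, where 33.5% of all 12716 genes were, and Hspd1 was lower in both, where 27.4% of all genes were. Hspa2 was the only member whose groups did not overlap, in a table where both transgenic libraries lay above both wild-type ones for 12.2% of genes. The median log2 fold change of the 10 was 0.38 among libraries numbered 1 and 0.25 among libraries numbered 2, against 0.02 and 0.01 for all genes compared. Since the family was chosen by this contrast, nothing is read from these counts. Over the whole table, in fits with no term for the library number, limma called 0 genes at an adjusted p under 0.05 (0% of 12716) between the genotypes, with 83 genes at an unadjusted p under 0.05; voom on recovered reads also called 0, with 32 unadjusted.

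**Figure D1:**
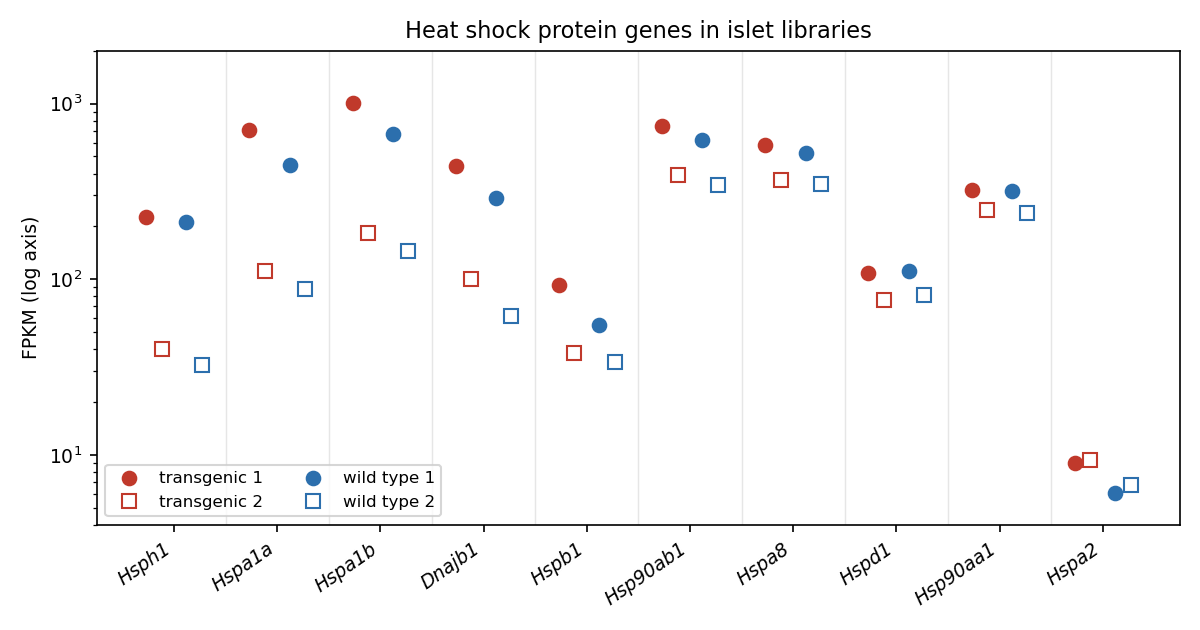
FPKM of the 10 genes in each library on a log axis, transgenic in red and wild type in blue, with filled circles for libraries numbered 1 and open squares for those numbered 2. Circles lie above squares for 9 genes (the share of all genes was not computed). Both Hspa2 points of the transgenic libraries (8.93 and 9.32 FPKM) lie above those of the wild-type libraries (6.08 and 6.74 FPKM).

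Dnajb1 had the highest pooled log2 fold change of the 10, transgenic over wild type. Dnajb1 (ENSMUSG00000005483, chr8:83608193-83612653, plus strand) was at 441 and 101 FPKM in the transgenic libraries 1 and 2, against 291 and 62.0 FPKM in the wild-type libraries 1 and 2. That is 1.51-fold within number 1 and 1.62-fold within number 2, while the groups overlapped and the pooled log2 fold change was 0.64 ± 1.04 (SE).

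The stress-inducible HSP70 pair went the same way within both numbers. Hspa1a (ENSMUSG00000091971, chr17:34969190-34972156, minus strand) was at 708 and 112 FPKM in the transgenic libraries 1 and 2, against 447 and 87.7 FPKM in the wild-type libraries 1 and 2. Hspa1b (ENSMUSG00000090877, chr17:34956436-34959238, minus strand) was at 1008 and 182 FPKM in the transgenic libraries 1 and 2, against 669 and 145 FPKM in the wild-type libraries 1 and 2. Both copies were higher in the transgenic library of each pair, by 1.58-fold and 1.27-fold for Hspa1a and by 1.505-fold and 1.26-fold for Hspa1b, number 1 given before number 2. Summed over the copies, the pooled log2 fold change was 0.48. The sum took 0.537% and 0.0817% of all reads in the transgenic libraries 1 and 2, against 0.322% and 0.0638% in the wild-type libraries 1 and 2. Levels in the transgenic library 2 were thus well below those in the wild-type library 1.

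Hspb1 differed most between genotypes within number 1 and little within number 2. Hspb1 (ENSMUSG00000004951, chr5:135887919-135889563, plus strand) was at 92.9 and 38.2 FPKM in the transgenic libraries 1 and 2, against 55.2 and 33.9 FPKM in the wild-type libraries 1 and 2. The ratios were 1.68 within number 1 and 1.13 within number 2, and no test of their difference was possible with 1 library per genotype and number. Hsph1, the HSP110 gene, had ratios of 1.08 within number 1 and 1.24 within number 2, transgenic over wild type.

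The constitutive chaperones differed little. Between genotypes the ratios, transgenic over wild type, were 1.10 within number 1 and 1.06 within number 2 for Hspa8. For Hsp90ab1 they were 1.20 and 1.14, and for Hsp90aa1, the more inducible HSP90 gene, 1.01 and 1.03. Hspd1 was at 0.966 and 0.942 of the wild-type level, the only member below 1 in both pairs.

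**Figure D2:**
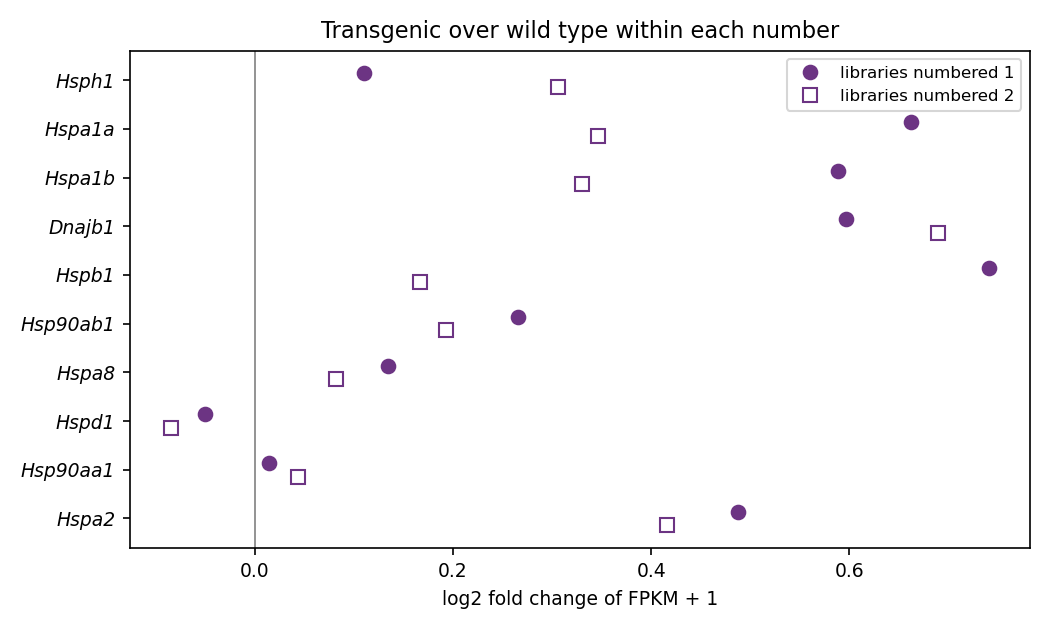
Transgenic over wild-type log2 fold change of FPKM + 1 for each gene, computed within libraries numbered 1 (filled circles) and within libraries numbered 2 (open squares), with 1 library per genotype and so no error bar. Hspa2 stands at 0.49 and 0.42, Dnajb1 at 0.60 and 0.69, Hspb1 at 0.74 and 0.17, and Hspd1 at -0.05 and -0.08.

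Leaving out a library unbalances the numbers, and the pooled genotype values of the inducible genes then moved with the number. Hspa1a had a pooled log2 fold change, transgenic over wild type, of -0.82 without transgenic library 1 and -0.66 without wild-type library 2. It was 1.83 without transgenic library 2 and 1.67 without wild-type library 1. Dnajb1 likewise stood at -0.42 and -0.46 in the first pair of cases and at 1.70 and 1.75 in the second pair. Hspa2 was between 0.39 and 0.52 in all 4. Groups that do not overlap fix only the sign of these values. Its log2 fold change between the numbers was small, -0.06 within transgenic and -0.13 within wild-type islets.

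Between the numbers, a contrast that the rule for choosing the genes did not use, though earlier results of these libraries were known, the inducible chaperone genes had larger folds than between genotypes. In the libraries numbered 1 compared with those numbered 2, with genotype as a term in limma, 9 of the 10 genes were higher at an adjusted p under 0.05 and none was lower, against 14.1% of all 12716 genes called higher and 13.4% called lower. The median log2 fold change of the 10 was 0.93, against -0.01 over all genes compared. Hsph1, Hspa1a, Hspa1b and Dnajb1 rose most, by more than 2 on the log2 scale, and Hspa2 was the gene that did not pass. All 10 genes together took 1.57% and 1.15% of the reads in the transgenic and wild-type libraries numbered 1, against 0.529% and 0.463% in the transgenic and wild-type libraries numbered 2.

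Hsph1 (ENSMUSG00000029657, chr5:149614287-149636376, minus strand) was at 227 and 211 FPKM in the transgenic and wild-type libraries numbered 1, against 40.2 and 32.3 FPKM in the transgenic and wild-type libraries numbered 2. The number 1 libraries were 5.66-fold higher among transgenic and 6.52-fold higher among wild-type islets, and the log2 fold change was 2.57 ± 0.09 (SE; limma adjusted p = 0.00133). Its partner in the HSP70 cycle, Hspa1a, was 6.33-fold higher in number 1 among transgenic islets and 5.09-fold higher among wild-type islets (log2 fold change 2.49 ± 0.11, limma adjusted p = 0.00145). Hspa1b was 5.52-fold higher among transgenic and 4.62-fold higher among wild-type islets (2.33 ± 0.10, limma adjusted p = 0.00145). Taken as a sum, which removes the doubt over how reads were split, the pair gave a log2 fold change of 2.40 (limma adjusted p = 0.00148). Dnajb1, the J protein gene that is induced with them, was 4.38-fold higher among transgenic and 4.70-fold higher among wild-type islets (2.17 ± 0.08, limma adjusted p = 0.00133). For these 4 genes, as for every other member except Hspa2, each library numbered 1 was above each numbered 2, whatever its genotype. The share of all genes separated in this way was not computed. In number fits with a library left out, here and below, genotype was not a term, so the numbers were not balanced over it. Hsph1, Hspa1a and Hspa1b passed in all 11 alternative analyses, and Dnajb1 in 10, with an adjusted p of 0.0513 without transgenic library 1.

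The small heat shock protein gene Hspb1 and the HSP90 genes rose less. Hspb1 was 2.43-fold higher in number 1 among transgenic islets and 1.63-fold higher among wild-type islets (log2 fold change 0.97 ± 0.15, limma adjusted p = 0.0169). Hsp90ab1 (ENSMUSG00000023944, chr17:45567775-45573271, minus strand), the constitutive HSP90, was at 748 and 622 FPKM in the transgenic and wild-type libraries numbered 1, against 393 and 344 FPKM in the transgenic and wild-type libraries numbered 2. Its log2 fold change was 0.89 ± 0.09 (limma adjusted p = 0.00645). Hsp90aa1 (ENSMUSG00000021270, chr12:110690605-110702728, minus strand) was at 323 and 320 FPKM in number 1, transgenic then wild type, against 247 and 239 FPKM in number 2. Its log2 fold change was 0.40 ± 0.08 (limma adjusted p = 0.0280), a smaller estimate for the gene known as inducible than for its constitutive relative, and the difference between them was not tested. Without transgenic library 1 the adjusted p was 0.0599 for Hspb1, 0.0501 for Hsp90ab1 and 0.0765 for Hsp90aa1, and that of Hsp90aa1 also missed the threshold without each of the other libraries (0.0585 to 0.278).

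Hspa8 and Hspd1 rose by less than 1 on the log2 scale. Hspa8 (ENSMUSG00000015656, chr9:40800984-40810087, plus strand), the constitutive HSP70 of the cytosol, was at 578 and 527 FPKM in the transgenic and wild-type libraries numbered 1, against 369 and 348 FPKM in the transgenic and wild-type libraries numbered 2. Its log2 fold change was 0.62 ± 0.08 (limma adjusted p = 0.0126), with adjusted p of 0.0537 without transgenic library 1 and 0.0994 without wild-type library 2. Hspd1 (ENSMUSG00000025980, chr1:55077835-55088243, minus strand) was at 108 and 112 FPKM in number 1, transgenic then wild type, against 76.4 and 81.1 FPKM in number 2. Its log2 fold change was 0.48 ± 0.08 (limma adjusted p = 0.0184), with adjusted p of 0.0540 to 0.141 when any single library was left out. Hspd1 overlaps the divergent gene Hspe1, its cochaperonin, and the strand setting of the counting is not known, so some reads could belong to either. Genes such as Hspa8 and the HSP90 pair also have processed copies elsewhere in the genome, and their reads may be split.

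Hspa2 was the member that did not pass between the numbers. It was at 8.93 and 6.08 FPKM in the transgenic and wild-type libraries numbered 1, against 9.32 and 6.74 FPKM in the transgenic and wild-type libraries numbered 2. The log2 fold change was -0.09 ± 0.08 (limma adjusted p = 0.403), with -0.06 within transgenic and -0.13 within wild-type islets. It was 0.12 with transgenic library 2 left out and 0.15 with wild-type library 1 left out. Those fits had no genotype term, so the genotype difference of Hspa2 enters both values. Per kilobase Hspa2 was also the rarest member by far. Its mean over the 4 libraries ranked 4799 among the 12716 genes compared, whereas Hsp90ab1 (527 FPKM) ranked 29, Hspa1b 32, Hspa8 39 and Hspa1a 57.

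**Figure D3:**
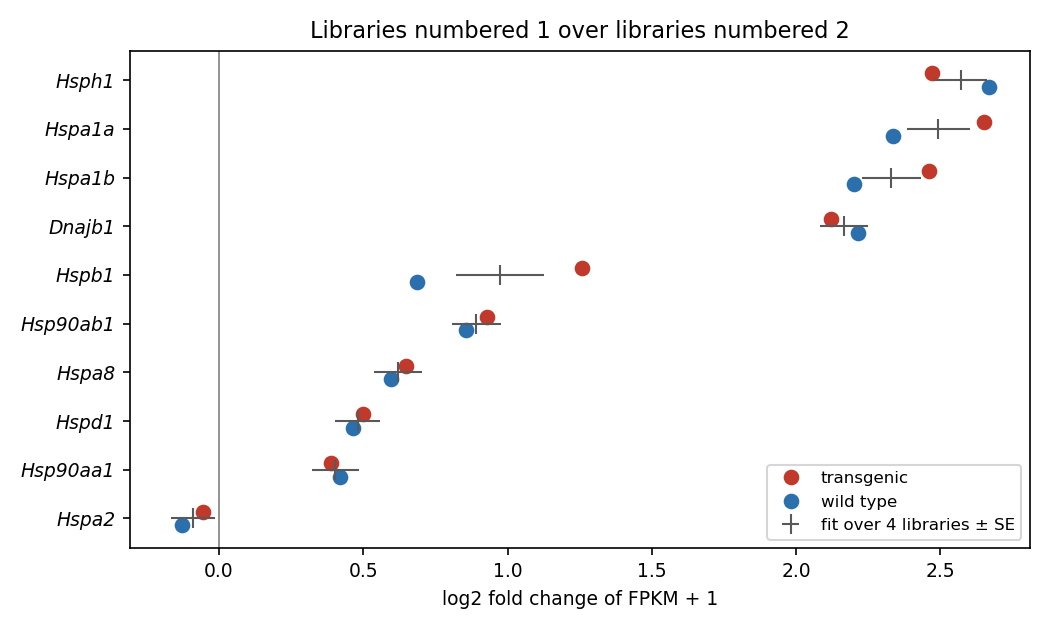
Log2 fold change of FPKM + 1, libraries numbered 1 over libraries numbered 2, within transgenic islets (red) and within wild-type islets (blue), with the limma estimate over 4 libraries and its standard error as a cross. Hsph1, Hspa1a, Hspa1b and Dnajb1 lie beyond 2, Hspa2 lies at -0.09, and both genotypes fall close together for each gene except Hspb1 (1.26 and 0.69).

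HSF1 and its partners moved little at the RNA level. Hsf1 itself was at 7.08 and 6.66 FPKM in the transgenic and wild-type libraries numbered 1, against 5.29 and 5.04 FPKM in the transgenic and wild-type libraries numbered 2, a rise of 0.35 ± 0.07 on the log2 scale (limma adjusted p = 0.0306). HSF1 is known to be controlled mainly by trimer formation and modification, which RNA does not show. Hsbp1, a small protein that binds HSF1 trimers, fell by 0.39 ± 0.09 (limma adjusted p = 0.0419), and Hsf2 had a log2 fold change of -0.09 that did not pass. Of 4 genes compared of the heat shock factors and their partners, 1 rose and 1 fell. Called higher were 14.1% of all genes and called lower 13.4%, so nothing is read from a count over 4 genes.

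Among cofactors of the HSP70 cycle, 1 of 9 HSP70 cochaperones and 5 of 12 further J protein genes rose between the numbers, against 14.1% of all genes. Bag3, which releases substrate from HSP70 and is itself a heat shock gene, was at 62.4 and 41.4 FPKM in the transgenic and wild-type libraries numbered 1, against 8.56 and 7.24 FPKM in the transgenic and wild-type libraries numbered 2. Its log2 fold change of 2.55 ± 0.11 (limma adjusted p = 0.00148) was the only call among the cochaperones (list median 0.15), with Bag6 at 0.24 and Hspbp1 at 0.18 below the threshold. None of the 12 further J protein genes was called lower, and their list median was 0.09. Dnaja1, an abundant cytosolic J protein, was at 96.0 and 91.2 FPKM in number 1, transgenic then wild type, against 40.7 and 38.0 FPKM in number 2 (log2 fold change 1.23, limma adjusted p = 0.00268). Dnajb4 followed at 1.20 and Dnaja4 at 0.96. Of 6 further HSP70 and HSP110 genes, 1 rose (Hspa14, 0.32) and 1 fell (Hspa4l, by 0.35).

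The remaining folding machines are read against the shares of all genes called, 14.1% higher and 13.4% lower. Of 12 HSP90 cochaperones compared, 3 rose and 1 fell (list median 0.02): Unc45a, which hands myosin and other clients to HSP90, rose by 0.67, the p23 gene Ptges3 by 0.52 and Tomm34 by 0.31, while Fkbp5, an immunophilin gene induced by glucocorticoids, fell by 0.31 on the log2 scale. None of 14 subunits of the cytosolic chaperonin TRiC and of prefoldin passed in limma (2 at an unadjusted p under 0.05, list median -0.04). Among 10 mitochondrial chaperones and proteases, Hspe1 was the only call, with a rise of 0.61 ± 0.13 (limma adjusted p = 0.0303). Of 7 small heat shock protein genes listed besides Hspb1, 3 were compared, and Hspb6 rose by 0.78 ± 0.16 (limma adjusted p = 0.0300). In the genotype fit with no term for the library number, no gene of any of these lists was called. Neither was any of the 12716 genes, so this says nothing particular to the lists.

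Chaperones of the endoplasmic reticulum, known mainly as genes of the unfolded protein response, were compared between the numbers too. Of 10, 7 were higher in number 1 and none lower, with a list median of 1.21. Among all genes, 14.1% were called higher and 13.4% lower. Calr, a lectin chaperone, rose by 1.82, the disulfide isomerase gene Pdia4 by 1.56 and Hyou1, the HSP110 relative of that compartment, by 1.34 on the log2 scale.

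Immediate early genes and markers of other cells were also compared between the numbers. Of 22 immediate early and dissociation genes, those that are switched on within minutes of a stimulus such as tissue digestion, 20 rose and none fell, with a list median of 1.54 (Fosb 3.12, Jun 2.57 and Dusp1 2.45 on the log2 scale). Of 15 acinar markers compared, all 15 rose, with a list median of 2.06. Of 7 beta cell markers, 3 were called lower and none higher, where 13.4% of all genes were called lower. Their median was -0.29, in a range from -1.16 to 0.25. Of 6 endothelial markers 4 rose (median 0.36) and of 7 macrophage and dendritic cell markers 1 rose, near the 14.1% of all genes called higher. Between genotypes the acinar markers were higher in the transgenic library in both pairs for 15 of 15, where 33.5% of all genes were. Their medians were 0.47 within number 1 and 0.78 within number 2. The immediate early genes were higher in both pairs for 20 of 22, beside the same 33.5% of all genes, with medians of 0.41 and 0.44. The part of acinar RNA and of the immediate early genes in the values of the 10 heat shock genes was not tested. Within the number 2 libraries, acinar RNA was 1.72 times the wild-type sum in the transgenic library, and the 10 genes there ranged from 0.942 (Hspd1) to 1.62 (Dnajb1) times the wild-type level. Within number 1 that ratio of acinar RNA was 1.35, and the 10 genes ranged from 0.966 (Hspd1) to 1.68 (Hspb1) times the wild-type level.

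**Figure D4:**
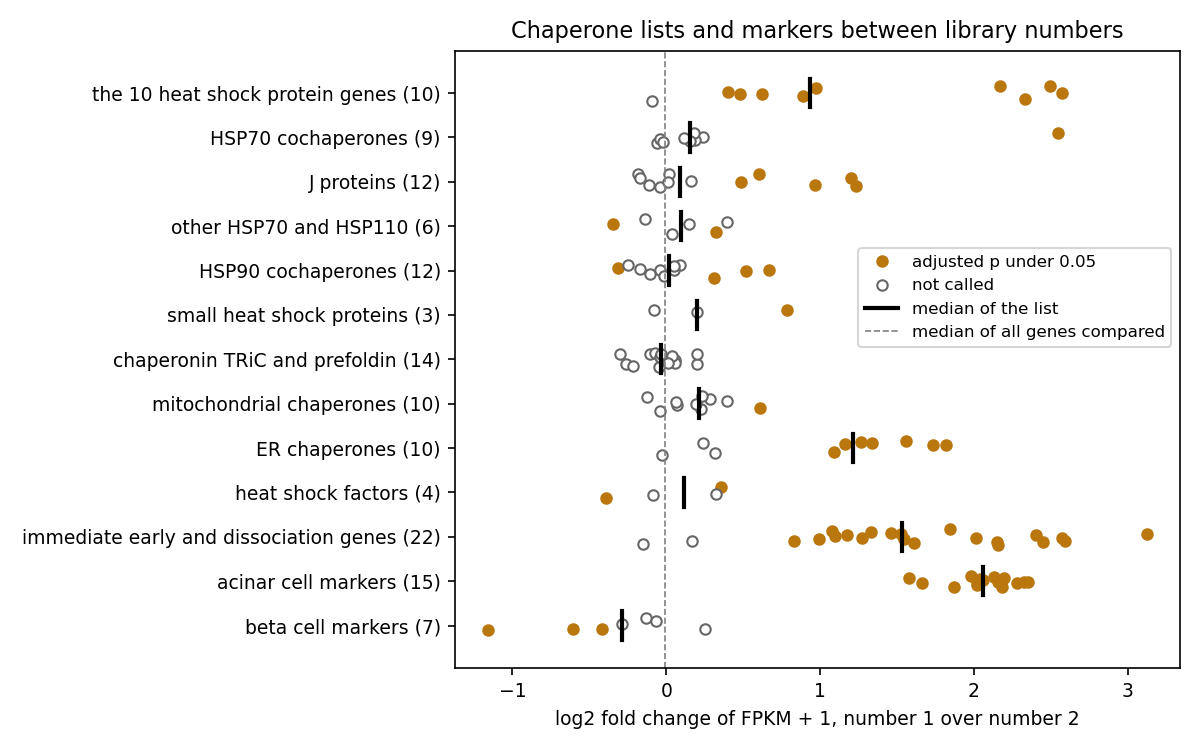
Log2 fold change of FPKM + 1, libraries numbered 1 over libraries numbered 2, for each gene of the heat shock family, of other chaperone lists and of marker lists, with the number of genes compared in parentheses. Filled points passed a limma adjusted p under 0.05, black bars are list medians and the dashed line is the median of all genes compared (-0.01); the family median is 0.93, that of endoplasmic reticulum chaperones 1.21, of immediate early genes 1.54 and of acinar markers 2.06.

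Hspa2 is abundant in spermatocytes, and none of 5 germ cell markers (Ddx4, Dazl, Sycp3, Sycp1, Tnp1) reached the level for comparison. Their summed level was 0.543 and 0.410 FPKM in the transgenic libraries 1 and 2, against 0.756 and 0.475 FPKM in the wild-type libraries 1 and 2, and Tnp1 was listed at 0 throughout. The 4 genes whose pattern over the 4 libraries was nearest to that of Hspa2, by root mean square distance of centred log2(FPKM + 1), were Gm13217 (0.0291), Dusp23 (0.0419), Chst12 (0.0444) and E2f4 (0.0495). E2f4, a transcription factor gene of the cell cycle, was at 15.7 and 15.8 FPKM in the transgenic libraries 1 and 2, against 11.4 and 11.4 FPKM in the wild-type libraries 1 and 2. They were picked for this likeness, which with 4 libraries many genes can reach.

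The transgene encodes miR-29a and miR-29b, whose shared seed sets which transcripts they can pair with, so the members were searched for it. The mature sequences (RefSeq, GRCm38.p6) lie on the minus strand at chr6:31062673-31062694 for miR-29a-3p and chr6:31063025-31063047 for miR-29b-3p, and capitals mark the seed, bases 2 to 8.
mmu-miR-29a-3p: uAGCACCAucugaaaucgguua
mmu-miR-29b-3p: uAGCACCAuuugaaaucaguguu
The 7-base complement of the seed, TGGTGCT, was in the 3′ untranslated region of 0 of the 10 genes (GENCODE M21 annotation), against 1799 of 10723 compared genes with an annotated region (16.8%). The regions ranged from 83 bases in Hspa8 to 1834 bases in Dnajb1. Only this string was searched, and pairing of other kinds was not.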

How the data were processed

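RNA of isolated islets was sequenced in 2 transgenic and 2 wild-type libraries (TruSeq kit, per the labels' protocols). The authors deposited FPKM values per gene on GRCm38, counted with HTSeq 0.6.0, per the submitters' processing notes; the aligner and strand setting are not given in the sources used here. FPKM times length came out as whole reads for 100% of values above 0 (tolerance 0.001 of a read), which gave the reads per library. The totals to which the deposited FPKM were scaled, 21011900 to 25927100 reads, are not the sums of reads over genes. How the authors set them is not stated. The median of all genes compared differed by -0.01 (log2) between the numbers.

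Values were compared as log2(FPKM + 1), which understates changes of low genes, for 12716 genes with FPKM of at least 1 in 2 libraries. limma 3.58.1 (R 4.3.3; lmFit and eBayes with trend) was fitted for genotype, and for library number with genotype as a term, with 2-sided Benjamini-Hochberg adjusted p over all genes compared; the fits were tested on simulated data. Members and gene lists were chosen with earlier results of these data known. Named genes are the 10 members, Hsf1 and Hsf2, in each list the 3 of smallest p between numbers and the 1 of smallest p between genotypes, and the 4 nearest to Hspa2; Fkbp5, outside this rule, was chosen after its value was seen. Alternatives were another pseudocount, other filters, median-of-ratios scaling, voom on recovered reads, a GC curve, the replicate block, and each library left out. With a library left out, the number fits had no genotype term. Sequences come from RefSeq tables (GRCm38.p6) and GENCODE M21. Coordinates are GRCm38.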

Additional observations from a re-analysis of the deposited data

Results flagged for a closer look

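The transgenic over wild-type log2 fold change had opposite signs in the 2 number pairs, by at least 0.1 in each, for 5 of 47 named genes, against 1270 of 12716 genes compared (9.99%). With 1 library per genotype and number the difference was not tested. The count among named genes is near the share of all genes, so nothing is read from it. Hspb6, a small heat shock protein gene, was at -0.17 within number 1 and 0.46 within number 2, and its relative Hspb8 at -0.15 and 0.49. Hspe1, the mitochondrial cochaperonin that neighbours Hspd1, was at 0.23 within number 1 and -0.20 within number 2. The mitochondrial protease gene Clpx was at -0.19 and 0.12, and Hspa13, an HSP70 relative, at -0.18 and 0.35. No member of the family of 10 was among them.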

How the results depend on the processing

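Between numbers limma called 3495 genes; without a filter on low values it called 591, and voom on recovered reads called 5560. Leaving out each library in turn gave 835 to 1822 genes. Of the 10 members, 9 were called; 4 were called without a filter and 3 to 7 with a library left out, the fewest without transgenic library 1 (fewer samples and, without a filter, more genes tested). The other 6 alternatives left 9 called. The log2 fold change of Hspa2 between numbers ranged from -0.34 to 0.15 in those fits, into which its genotype difference enters. It was 0.12 without transgenic library 2 and 0.15 without wild-type library 1, against -0.06 within transgenic and -0.13 within wild-type islets. Between genotypes the members' median log2 fold change of 0.34 ranged over -0.28 to 0.89 with a library left out. With the library number as replicate block, limma called 0 genes (1360 at an unadjusted p under 0.05), voom called 217 (176 higher, 41 lower) and voom with a GC curve removed called 73 (59 higher, 14 lower). Deviations of libraries with the same number had a correlation of 0.78 across 12716 genes, which are not independent replicates; with 2 pairs the samples are only known to share a number. The 2 libraries per group limit every error given here.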
